A study of Homo sapiens with 30 samples.

Results

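METTL18 and XYLT2 are 2 protein-coding genes whose RNA responded to CYC065 in opposite ways when the parental NB line SH-EP was set against its MYCN-expressing derivatives. They are 2 of the 26228 genes in the deposited table, and they were picked because of that difference, METTL18 falling less and XYLT2 falling more in the MYCN lines. The difference in response, and each line's own response and level, are therefore described here and not tested. SH-EP, an established NB cell line of human origin, lacks MYCN amplification. Its 4 derivatives carry a retroviral transgene, read from an exogenous promoter, for MYCN that is WT, T58A, S62A, or T58A S62A, the latter 3 being alanine substitutions at phosphorylation sites that govern MYCN stability. Cells of all 5 lines received DMSO or 1 μM CYC065, an inhibitor of CDK2 and CDK9, for 6 hours, and each of the 10 groups has 3 libraries, 30 in all. Nothing in the labels says that the 3 libraries came from separate cultures, so that p-values measure the spread between these libraries only. Each allele is represented by a single line.

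METTL18 encodes a methyltransferase that modifies a histidine residue of the ribosomal protein RPL3. XYLT2 encodes 1 of the 2 xylosyltransferases, XYLT1 being the other, that place a xylose on serines of proteoglycan core proteins, the step from which heparan sulfate and chondroitin sulfate chains are built. CDK9, in the P-TEFb complex, phosphorylates RNA polymerase II and releases it into elongation, so that its inhibition lowers the RNA of many genes, those with short-lived RNA soonest.

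METTL18 (ENSG00000171806) lies at chr1:169761670-169764104 on the minus strand (GRCh37), and each of its 3 annotated transcripts has 2 exons. The whole gene sits within the span of C1orf112 (FIRRM in RefSeq), which is read from the opposite strand at chr1:169631245-169823221. The first-listed RefSeq starts of the pair are 133 bases apart and point away from each other. XYLT2 (ENSG00000015532) lies at chr17:48423487-48440499 on the plus strand, with 7 annotated transcripts of 1 to 11 exons. An unnamed minus-strand gene model, ENSG00000279792, overlaps its end and has no row of its own in the table, and MRPL27, a mitochondrial ribosomal protein gene on the minus strand, has its nearer end within 10 kb. The 250 bases before the first-listed RefSeq start of both genes are shown because the lines differ in MYCN, a factor that binds the E-box CACGTG and variants of it such as CACGCG. They were read from GRCh38.p14, at chr1:169794908-169795157 (minus strand) for METTL18 and chr17:50345876-50346125 (plus strand) for XYLT2, and capitals mark a match to CACGCG.
METTL18: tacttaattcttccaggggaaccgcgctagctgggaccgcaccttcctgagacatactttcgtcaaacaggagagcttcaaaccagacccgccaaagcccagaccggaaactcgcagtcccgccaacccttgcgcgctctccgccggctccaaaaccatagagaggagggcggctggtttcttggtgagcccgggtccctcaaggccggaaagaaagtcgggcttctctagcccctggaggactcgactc
XYLT2: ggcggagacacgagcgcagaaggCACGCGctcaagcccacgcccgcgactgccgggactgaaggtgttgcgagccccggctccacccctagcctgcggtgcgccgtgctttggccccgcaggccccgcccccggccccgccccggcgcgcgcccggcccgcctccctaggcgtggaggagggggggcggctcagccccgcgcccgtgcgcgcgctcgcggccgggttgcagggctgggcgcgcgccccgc
CACGTG was found on neither strand of either window. CACGCG was found once, in XYLT2, and not in METTL18. Of 35116 RefSeq promoter windows of this length, 6.34% held CACGTG and 9.72% held CACGCG, both strands searched. GC content was 59.6% for METTL18 and 81.2% for XYLT2. These matches are descriptions of the letters and were not tested for binding.

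MYCN was at 0 FPKM in all 6 SH-EP libraries and between 5.08 and 20.1 FPKM in the 24 libraries of the MYCN lines, as the labels give it. Libraries differed in depth. Estimated from the steps between low FPKM values and relative to the deepest library, depth was 0.463 to 1 in DMSO and 0.293 to 0.555 in CYC065. The share of genes listed at 0 ran from 40.6% to 45.8%. The labels give all 6 SH-EP libraries index barcodes that libraries of the T58A and T58A S62A lines also carry, and name no sequencing pools. Were SH-EP sequenced apart from its derivatives, that and the line difference cannot be told apart. FPKM values (fragments per kilobase of transcript and per number of mapped fragments) are relative within a library. Values scaled to the ERCC spike-ins, which were added according to cell number, are given beside them, since the median of all tested genes changed by -1.2 on the log2 scale with CYC065 after spike-in scaling and by 0.1 as deposited. In bulk RNA, fewer expressing cells and less RNA per cell cannot be told apart.

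On FPKM as deposited, METTL18 was at a similar level in all 5 lines in DMSO, and with CYC065 it was lower in each, most of all in SH-EP. After spike-in scaling its DMSO mean was 42.9 in SH-EP and 9.22 to 23.1 in the MYCN lines. Most genes were lower there on that scale. The log2 difference of METTL18 from SH-EP in DMSO was -1.11 (WT), -0.9 (T58A), -2.21 (S62A), and -0.93 (T58A S62A). The medians of all tested genes were -1.16, -0.88, -1.86, and -0.75. In DMSO, the 3 SH-EP libraries had 13.8, 13.1, and 13.5 FPKM (mean 13.5 ± 0.343, SD, n = 3). In CYC065 they had 0.728, 0.332, and 0.193 FPKM (0.418 ± 0.278, SD, n = 3). The CYC065 libraries thus held 3.1% of the DMSO level, or 1.35% after spike-in scaling.

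The MYCN lines kept more METTL18. The WT line had 14.8, 13.8, and 16 FPKM in DMSO and 4.89, 6.06, and 6.6 in CYC065. The T58A line had 17.3, 11.9, and 13.3 in DMSO and 2.3, 3.3, and 3.77 in CYC065. No CYC065 library overlapped a DMSO library in these lines or in SH-EP. The S62A line had 11.3, 10.4, and 12 FPKM in DMSO and 4.98, 8.3, and 6.16 in CYC065. The T58A S62A line had 12, 14, and 11.8 in DMSO and 4.78, 3.96, and 2.78 in CYC065. The groups were apart in these lines as well, the gap being smallest in S62A, where the highest CYC065 library (8.3) came near the lowest DMSO library (10.4).

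As a share of the DMSO mean, METTL18 in CYC065 stood at 57.7% (S62A), 39.4% (WT), 30.5% (T58A S62A), and 22.1% (T58A) on FPKM as deposited. After spike-in scaling the shares were 20.1%, 12.2%, 14.2%, and 9.77%, so that S62A was highest and T58A lowest among the MYCN lines on both scales while WT and T58A S62A changed places. As deposited, the mean METTL18 level in CYC065 was 14 (WT), 7.48 (T58A), 15.5 (S62A), and 9.2 (T58A S62A) times that of SH-EP, whereas in DMSO the same ratios were 1.1, 1.05, 0.833, and 0.936. After spike-in scaling the ratios were smaller, at 4.18, 3.89, 3.2, and 5.56 in CYC065 and 0.464, 0.537, 0.215, and 0.528 in DMSO, with S62A lowest in both treatments. The median log2 difference of all tested genes from SH-EP was likewise lowest in S62A, at -1.86 in DMSO and -2.1 in CYC065. Ordered by mean FPKM, the 5 DMSO groups of METTL18 came first (WT, T58A, SH-EP, T58A S62A, S62A), each overlapping the next. The CYC065 groups followed in the order S62A, WT, T58A S62A, T58A, SH-EP. S62A overlapped WT and T58A S62A overlapped T58A. WT stood just above T58A S62A without overlap (lowest 4.89 against highest 4.78), and SH-EP stood below every other library.

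The low METTL18 values in CYC065-treated SH-EP rest on few fragments. Multiplied by relative depth, the values of its 3 libraries were 6.01, 3, and 1 times the lowest of them, as they would be if the lowest were a single fragment. In the same units the CYC065 libraries of the MYCN lines ran from 13 to 52 and the DMSO libraries of all lines from 96.7 to 266. The relative depth of the CYC065 libraries was 0.293 to 0.511 in SH-EP and 0.319 to 0.555 in the MYCN lines, so that the ranges overlapped. The spread of log2 values was widest in this group, with an SD of 0.76 against 0.04 to 0.39 in the other 9. The direction was the same in each library, and the exact size of the SH-EP decrease depends on which of these libraries are used. Without SH-EP CYC065 library 3, the mean difference in response described further on was 2.89, and without library 1 it was 3.79.

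**Figure D1:**
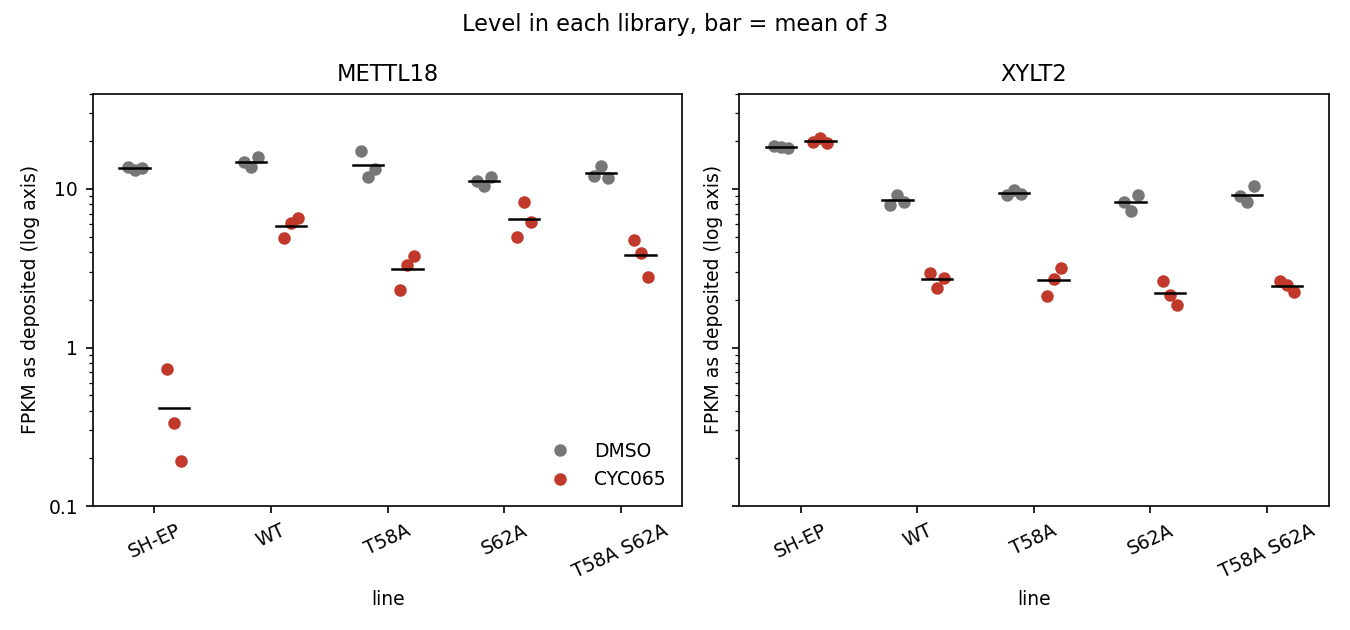
FPKM as deposited (log axis) of METTL18 (left) and XYLT2 (right) in each library, by line, with DMSO in gray and CYC065 in red; points are libraries and bars the mean of 3. METTL18, on this scale, was near the same level in every line in DMSO and lowest in CYC065-treated SH-EP (0.193 to 0.728), and XYLT2 was highest in SH-EP (18 to 20.9) whatever the treatment.

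XYLT2 showed the converse. Already in DMSO it was higher in SH-EP than in the derivatives, kept its FPKM in SH-EP when CYC065 was added, and fell in all 4 MYCN lines. SH-EP had 18.8, 18.3, and 18 FPKM in DMSO (18.4 ± 0.373, SD, n = 3) and 19.7, 20.9, and 19.6 FPKM in CYC065 (20.1 ± 0.698, SD, n = 3). All 3 CYC065 libraries were above all 3 DMSO libraries as deposited. After spike-in scaling they were below them, with means of 58.6 in DMSO and 27 in CYC065, a share of 46%. XYLT2 in SH-EP thus moved with the median gene of that line, at -1.12 (SE 0.21) on the log2 scale against a median of -1.06 over all tested genes.

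In the WT line, XYLT2 was at 7.96, 9.21, and 8.28 FPKM in DMSO and at 2.97, 2.38, and 2.76 in CYC065. In the T58A line it was at 9.16, 9.89, and 9.34 and then at 2.12, 2.7, and 3.18. The values of the pair overlapped in each treatment. In the S62A line XYLT2 was at 8.31, 7.26, and 9.09 FPKM in DMSO and at 2.62, 2.15, and 1.87 in CYC065. In the T58A S62A line it was at 9, 8.3, and 10.4 and then at 2.61, 2.49, and 2.24. No CYC065 library overlapped a DMSO library in any MYCN line, on either scale.

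The share of the DMSO mean of XYLT2 left in CYC065 was 31.9% (WT), 28.2% (T58A), 26.9% (S62A), and 26.5% (T58A S62A) on FPKM as deposited, and 9.68%, 12%, 9.62%, and 12.6% after spike-in scaling. In DMSO, XYLT2 in the MYCN lines stood at 0.461 (WT), 0.514 (T58A), 0.447 (S62A), and 0.502 (T58A S62A) times its SH-EP mean. In CYC065 the ratios were 0.135, 0.133, 0.11, and 0.122, again in FPKM as deposited. After spike-in scaling they were 0.197, 0.273, 0.115, and 0.281 in DMSO and 0.0415, 0.0714, 0.024, and 0.0771 in CYC065. By mean FPKM, SH-EP in CYC065 came first and SH-EP in DMSO second, without overlap between them or with any other group. The 4 DMSO groups of the MYCN lines followed (T58A, T58A S62A, WT, S62A), each overlapping the next, and then their 4 CYC065 groups (WT, T58A, T58A S62A, S62A), likewise overlapping. Among the MYCN lines within 1 treatment, groups next to each other in this order did not differ beyond their spread. Those farther apart could, as S62A lay wholly below T58A in DMSO (highest 9.09 against lowest 9.16). After spike-in scaling XYLT2 in S62A lay below the other MYCN lines in both treatments, at 6.57 to 6.82 in DMSO, where the next lowest library had 8.96, and at 0.555 to 0.828 in CYC065, where the next lowest had 0.993. This is shared by most genes on that scale. Over both treatments the median log2 difference of all tested genes was -0.58 for S62A against WT and -1.11 against T58A, where XYLT2 had -0.73 and -1.32. For T58A S62A against S62A it was 1.28, where XYLT2 had 1.41.

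**Figure D2:**
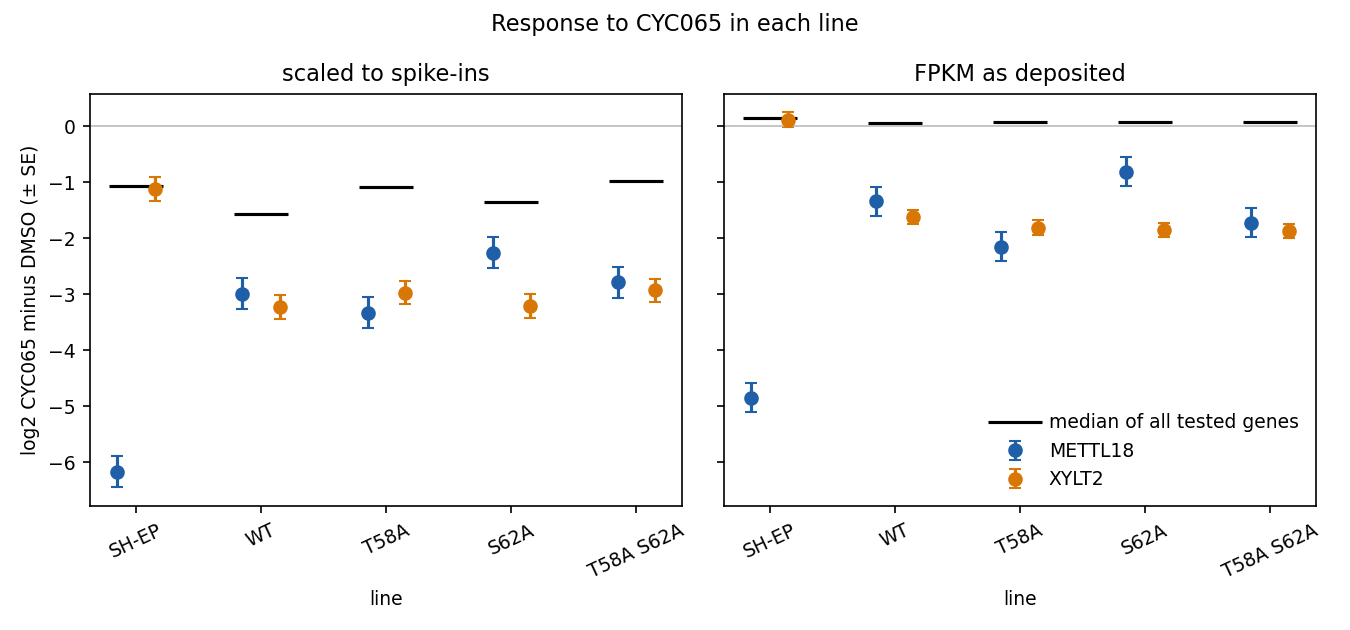
Log2 difference between CYC065 and DMSO (± SE) for METTL18 (blue) and XYLT2 (orange) in each line, after spike-in scaling (left) and as deposited (right), with black marks for the median of all tested genes. METTL18 in SH-EP (-6.17 with spike-in scaling) lies far below its values in the MYCN lines, and XYLT2 lies at the median in SH-EP and below it in the MYCN lines.

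On the log2(FPKM + 0.1) scale after spike-in scaling, the response of METTL18 was -6.17 in SH-EP against -2.99 (WT), -3.33 (T58A), -2.26 (S62A), and -2.79 (T58A S62A), with an SE of 0.28 each. The response in a MYCN line minus that in SH-EP was 3.18 for WT, 2.84 for T58A, 3.9 for S62A, and 3.38 for T58A S62A, with a mean of 3.33 (SE 0.31). For XYLT2 the responses were -1.12 in SH-EP against -3.23 (WT), -2.97 (T58A), -3.21 (S62A), and -2.93 (T58A S62A), with an SE of 0.21 each, and the differences from SH-EP were -2.11, -1.85, -2.09, and -1.81, with a mean of -1.96 (SE 0.23). As deposited, the mean differences were 3.34 (SE 0.29) and -1.91 (SE 0.14). The choice of scale thus moved neither gene by as much as its SE.

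These values are what both genes were picked on. Of the 11575 genes tested, whose mean reached 1 FPKM, 4.17% were called higher and 1.93% lower in this mean difference by limma (adjusted p under 0.05, spike-in scaled). METTL18 ranked 77th from the highest and XYLT2 50th from the lowest. Just above METTL18 stood DDIT3 (3.34), a stress-response transcription factor gene, and just below it MIR1306 (3.29). The ranks next to XYLT2 were held by HSPA2 (-2), a heat shock protein gene, and LOC100289561 (-1.87).

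**Figure D3:**
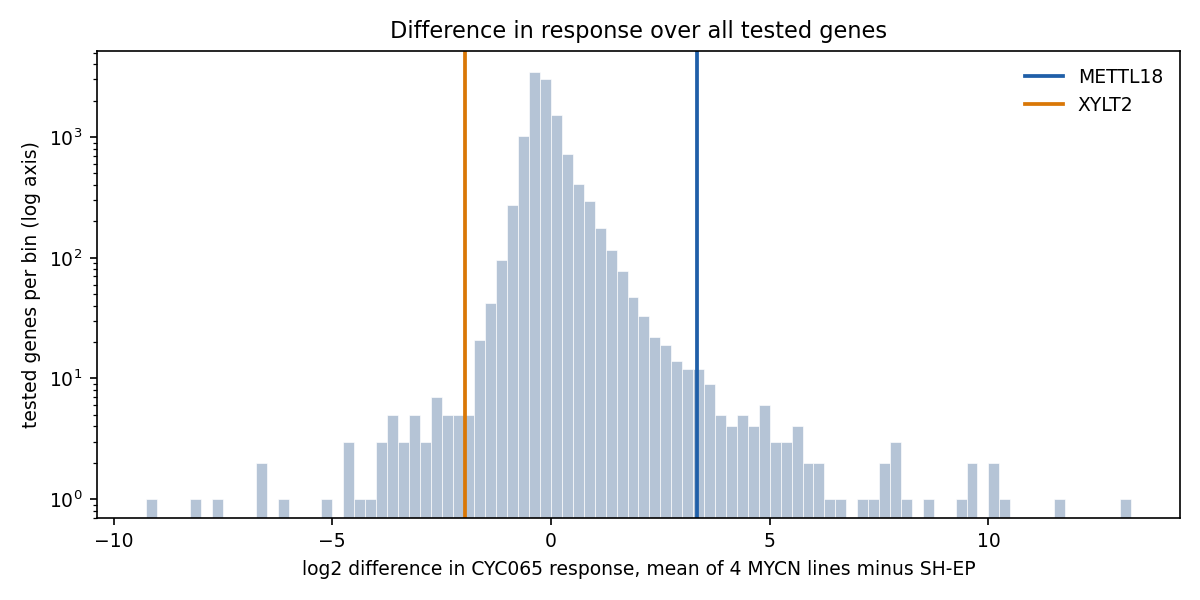
Number of tested genes (log axis) by the log2 difference in CYC065 response, mean of the 4 MYCN lines minus SH-EP, in bins of 0.25 after spike-in scaling, with METTL18 (blue line, 3.33) and XYLT2 (orange line, -1.96). Both lie in the tails but not at the ends of the distribution.

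Averaged over the 5 lines, CYC065 lowered both RNAs. This average is not the difference on which the genes were picked, but it is taken from the same libraries. Its p-values are therefore no support apart from that choice. METTL18 fell by 3.51 on the log2 scale (SE 0.12, adjusted p = 4.53e-20 by limma, lower in 15 of 15 libraries of the 5 lines than the DMSO libraries of the same line) and XYLT2 fell by 2.69 (SE 0.09, adjusted p = 2.56e-20) after spike-in scaling. Of all tested genes 94.4% were called lower in this comparison, so that the call itself did not set them apart. The median over all tested genes was -1.2. As deposited, METTL18 fell by 2.17 (adjusted p = 7.73e-15, limma) and XYLT2 fell by 1.4 (adjusted p = 2.25e-17, limma), where 39.8% of genes were called lower and the median was 0.1. An exact permutation test of the treatment labels within lines gave a 2-sided p of 6.25e-07 for each gene, the smallest that its 3200000 arrangements can give. It used the same libraries on the spike-in scale, where every CYC065 value lay below the DMSO values of its line. That separation fixes this p at its smallest, and the test adds nothing to it.

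Averaged over both treatments, METTL18 differed from SH-EP by 1.63 on the log2 scale as deposited (SE 0.15). This average comes from the CYC065 libraries, which the choice of the gene used, and is given without a test. As deposited, the DMSO differences ran from -0.26 (S62A) to 0.14 (WT) and the CYC065 differences from 2.75 (T58A) to 3.77 (S62A). After spike-in scaling they ran from -2.21 (S62A) to -0.9 (T58A) in DMSO and from 1.7 (S62A) to 2.45 (T58A S62A) in CYC065, and the average was 0.38 beside a median of -1.21 over all tested genes. XYLT2 was lower in the MYCN lines, by -2.01 as deposited (SE 0.07), beside a median of 0.07 over all tested genes. Both treatments contributed, with DMSO differences of -1.16 (S62A) to -0.95 (T58A) and CYC065 differences of -3.14 (S62A) to -2.85 (WT). The choice of XYLT2 used these CYC065 libraries too, so that its average is likewise given without a test. After spike-in scaling the XYLT2 average was -3.28, beside the same median of -1.21 over all tested genes.

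Between MYCN lines, levels over both treatments were compared for 6 pairs. METTL18 was lower in T58A than in WT, by -0.49 as deposited (SE 0.18, adjusted p = 0.0372, limma), and no other pair passed. Its mean log2 level was 3.82 in T58A and 3.9 in WT in DMSO, and 1.66 and 2.56 in CYC065. This METTL18 difference and its p-value thus rest mostly on CYC065 libraries, which the choice of the gene used, and not on a lower level in DMSO. XYLT2 was lower in S62A than in T58A, by -0.23 (SE 0.09, adjusted p = 0.0321, limma), and no other pair passed. Its mean log2 level was 3.05 in S62A and 3.26 in T58A in DMSO, and 1.2 and 1.45 in CYC065. The CYC065 libraries, which the choice of XYLT2 used, thus enter this p-value too. Both pair differences are smaller than the differences between SH-EP and the MYCN lines. In these pairs 39.8% (T58A against WT) and 55% (S62A against T58A) of all tested genes were called. In the other 4 pairs 34.5% (S62A against WT), 38% (T58A S62A against WT), 35.3% (T58A S62A against T58A), and 47.3% (T58A S62A against S62A) were called. After spike-in scaling the METTL18 difference between T58A and WT was 0.05 (adjusted p = 0.828, limma), against a median of 0.53 over all genes, and that of XYLT2 between S62A and T58A was -1.32 (adjusted p = 5.49e-09, limma), against a median of -1.11. Each call was also lost without some single libraries of the lines compared, 7 for METTL18 and 6 for XYLT2, with adjusted p-values by limma of up to 0.109 for METTL18 (without T58A CYC065 library 1) and 0.115 for XYLT2 (without T58A CYC065 library 3).

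The genes annotated within 10 kb of METTL18 and XYLT2 and present in the table, C1orf112 and MRPL27, kept most of their FPKM in every line. C1orf112, on the strand opposite METTL18, was at 21.7 ± 0.299 FPKM in DMSO and 15.9 ± 0.759 in CYC065 in SH-EP (SD, n = 3), a share of 73.4%, where METTL18 was at 3.1%. In the MYCN lines the share left of C1orf112 was 82.3% to 103%. Its difference in response was 0.19 (SE 0.21, adjusted p = 0.589, limma) with spike-in scaling and 0.3 (SE 0.1, adjusted p = 0.022, limma) as deposited. The libraries were made strand-specific and quantified as such, and C1orf112 RNA in CYC065-treated SH-EP stood far above METTL18 RNA. How far reads of C1orf112 entered the METTL18 values of any line was not tested. MRPL27 kept 79.1% of its DMSO FPKM in SH-EP and 87% to 107% in the MYCN lines, with a difference in response of 0.19 (SE 0.19, adjusted p = 0.557, limma), or 0.3 (SE 0.09, adjusted p = 0.0129, limma) as deposited. EME1, a nuclease subunit gene beside MRPL27 and just outside that window, did not keep its FPKM, with 13.5 ± 1.09 in DMSO and 1.6 ± 0.593 in CYC065 in SH-EP (SD, n = 3) and means of 11.4 to 12.9 and 2.16 to 2.91 in the MYCN lines.

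**Figure D4:**
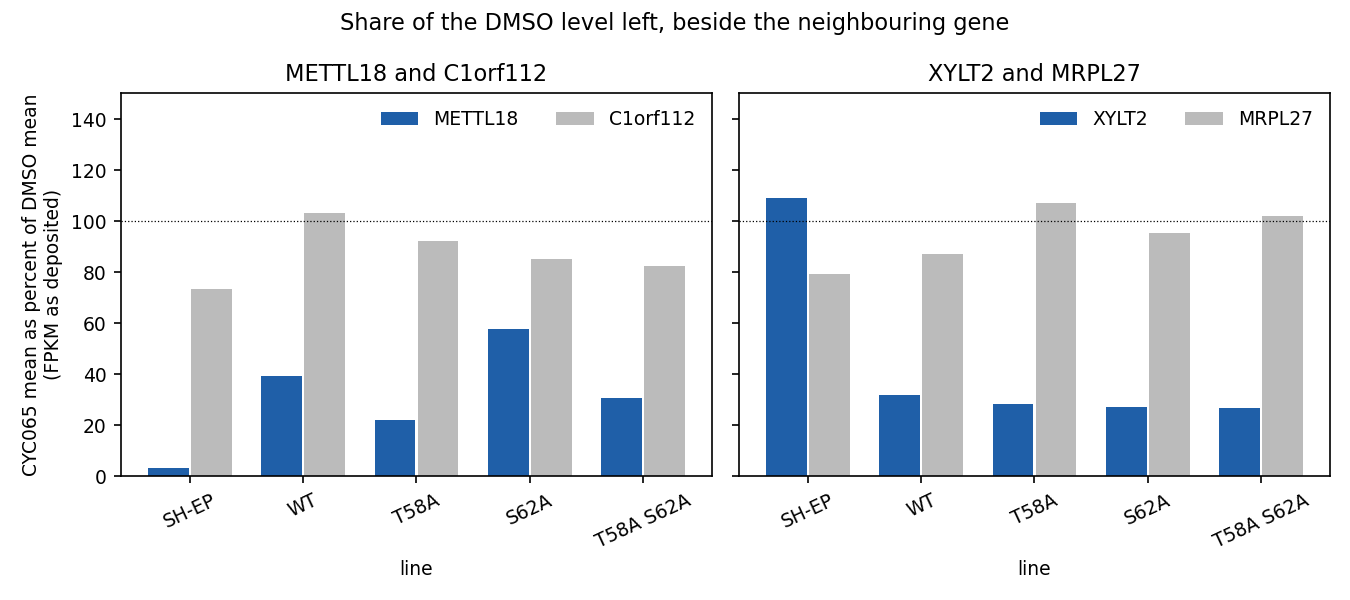
Mean FPKM in CYC065 as a percentage of the mean in DMSO (as deposited, 3 libraries a group) for METTL18 beside C1orf112 (left) and XYLT2 beside MRPL27 (right), by line; the dotted line marks 100%. C1orf112 ranges from 73.4% to 103% where METTL18 ranges from 3.1% to 57.7%.

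The substrate of METTL18, RPL3, had 763 ± 14.3 FPKM in DMSO and 1540 ± 17.6 in CYC065 in SH-EP (SD, n = 3) and group means of 887 to 977 and 1470 to 1690 FPKM in the MYCN lines. Related sequences elsewhere in the genome can share reads with RPL3, so that its level is uncertain. Its mean FPKM was higher in CYC065 than in DMSO in every line as deposited, and its difference in response was -0.41 (SE 0.21, adjusted p = 0.268, limma), or -0.29 (adjusted p = 0.00109, limma) as deposited. With the other protein histidine and carnosine methyltransferase genes (METTL9, SETD3, and C9orf41, also known as CARNMT1), it made a list of 4 genes, all tested. All 4 fell with CYC065 over the 5 lines, where 94.4% of all tested genes did, and none passed in the difference in response with spike-in scaling, with a median of -0.24 against -0.2 over all genes. METTL9, which methylates histidines of many proteins, had -0.23 (adjusted p = 0.477, limma), and C9orf41, which makes anserine from carnosine, had -0.26 (adjusted p = 0.467, limma). For METTL18 the same value was 3.33.

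METTL18 belongs with the METTL21-like family of protein methyltransferases. A list of 15 genes held others of that family, those acting on translation factors, and some other protein methyltransferases, and 13 of them were tested. With CYC065 12 fell and none rose, where 94.4% of all tested genes were called lower. In the difference in response, 1 was higher and none lower, with a median of -0.09, where 4.17% of all tested genes were called higher. That gene was METTL12, also known as CSKMT, which methylates citrate synthase. Its mean difference was 2.27 (SE 0.41, adjusted p = 0.000707, limma), positive in all 4 lines (1.52 to 2.71). Its levels differed from those of METTL18. In SH-EP it was at 2.92 ± 0.461 FPKM in DMSO and 2.35 ± 0.886 in CYC065, and in the MYCN lines its means were 1.03 to 1.38 in DMSO and 4.32 to 5.57 in CYC065 (n = 3 each). The small nucleolar RNA gene SNORA57 is annotated within METTL12, and the part of its reads in these values was not tested. VCPKMT, which methylates the chaperone VCP, had 0.64 (adjusted p = 0.226, limma), and METTL21A, which methylates heat shock proteins, had -0.64 (adjusted p = 0.207, limma). METTL13, which methylates the elongation factor eEF1A, had 0.62 (adjusted p = 0.107, limma). As deposited, 3 of the 13 passed as higher and 1 as lower by limma, where 13% of all tested genes were called higher and 20.3% lower. The higher ones were METTL12 with 2.34 (adjusted p = 4.15e-05, limma), VCPKMT with 0.73 (adjusted p = 0.0223, limma), and METTL13 with 0.71 (adjusted p = 0.000167, limma). The lower one was METTL21A with -0.55 (adjusted p = 0.0386, limma). Over both treatments 8 of the 13 were higher in the derivatives than in SH-EP and none lower, where 41.4% of all tested genes were called higher and 33.5% lower.

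XYLT1, the paralog of XYLT2, was hardly detected. It was listed at 0 in 16 of the 30 libraries, with at most 0.139 FPKM, and was not tested. Of the 8 other genes of the linkage region that joins chain to core protein, XYLT1 among them, 6 were tested. All 6 fell with CYC065 over the 5 lines (94.4% of all tested genes). In the difference in response 1 of the 6 was lower and none higher, with a median of -0.5, where 1.93% of all tested genes were called lower. It was B3GALT6, which adds the second galactose, with -0.8 (SE 0.24, adjusted p = 0.0418, limma). B4GALT7, which adds the first, had -0.78 (SE 0.31, adjusted p = 0.142, limma), and B3GAT3, which adds the glucuronic acid, had -0.51 (SE 0.24, adjusted p = 0.235, limma). None reached the -1.96 of XYLT2. As deposited, 5 of the 6 passed as lower, where 20.3% of all tested genes were called lower and 13% higher. Over both treatments 5 of the 6 were lower in the derivatives than in SH-EP (33.5% of all tested genes), as XYLT2 was, B4GALT7 by -0.85 and B3GAT3 by -0.79.

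Among 23 genes for the enzymes that build, sulfate, or trim heparan and chondroitin sulfate chains, 20 were tested and all 20 fell with CYC065 (94.4% of all tested genes). In the difference in response 4 were lower and none higher, where 1.93% of all tested genes were called lower and 4.17% higher. All 20 values were below 0, with a median of -0.45, but most tested genes were below 0 as well, with a median of -0.2. The 4 were EXTL3, which starts heparan sulfate chains (-1.05, SE 0.26, adjusted p = 0.0149, limma), CHST3, a chondroitin sulfotransferase (-0.9, adjusted p = 0.0366, limma), NDST1, which starts heparan sulfate sulfation (-0.7, adjusted p = 0.0433, limma), and DSE, which epimerizes chondroitin to dermatan sulfate (-0.62, adjusted p = 0.0391, limma). Each of these calls, and that of B3GALT6, was lost in at least 1 fit that left out a library. CHST12, also a chondroitin sulfotransferase, had -0.81 (adjusted p = 0.0694, limma). As deposited, 10 of the 20 passed as lower, where 20.3% of all tested genes did. Over both treatments 13 were lower and 5 higher in the MYCN lines, where 33.5% and 41.4% of all tested genes were.

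Of 18 core protein genes that carry such chains 13 were tested, and all fell with CYC065 (94.4% of all tested genes). None passed in the difference in response with spike-in scaling, at a median of -0.47. SDC3, a syndecan, had -0.75 (SE 0.23, adjusted p = 0.0521, limma), TGFBR3, the betaglycan gene, had -0.79 (SE 0.27, adjusted p = 0.0853, limma), and GPC1, a glypican, had -0.57 (SE 0.22, adjusted p = 0.14, limma). As deposited, 8 passed as lower and 1 as higher, where 20.3% and 13% of all tested genes did. Over both treatments 9 were lower and 3 higher in the MYCN lines, where 33.5% and 41.4% of all tested genes were, SDC3 by -1.75. For each of the 3 proteoglycan lists the median difference in response was below that of all genes (-0.2) on the spike-in scale.

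**Figure D5:**
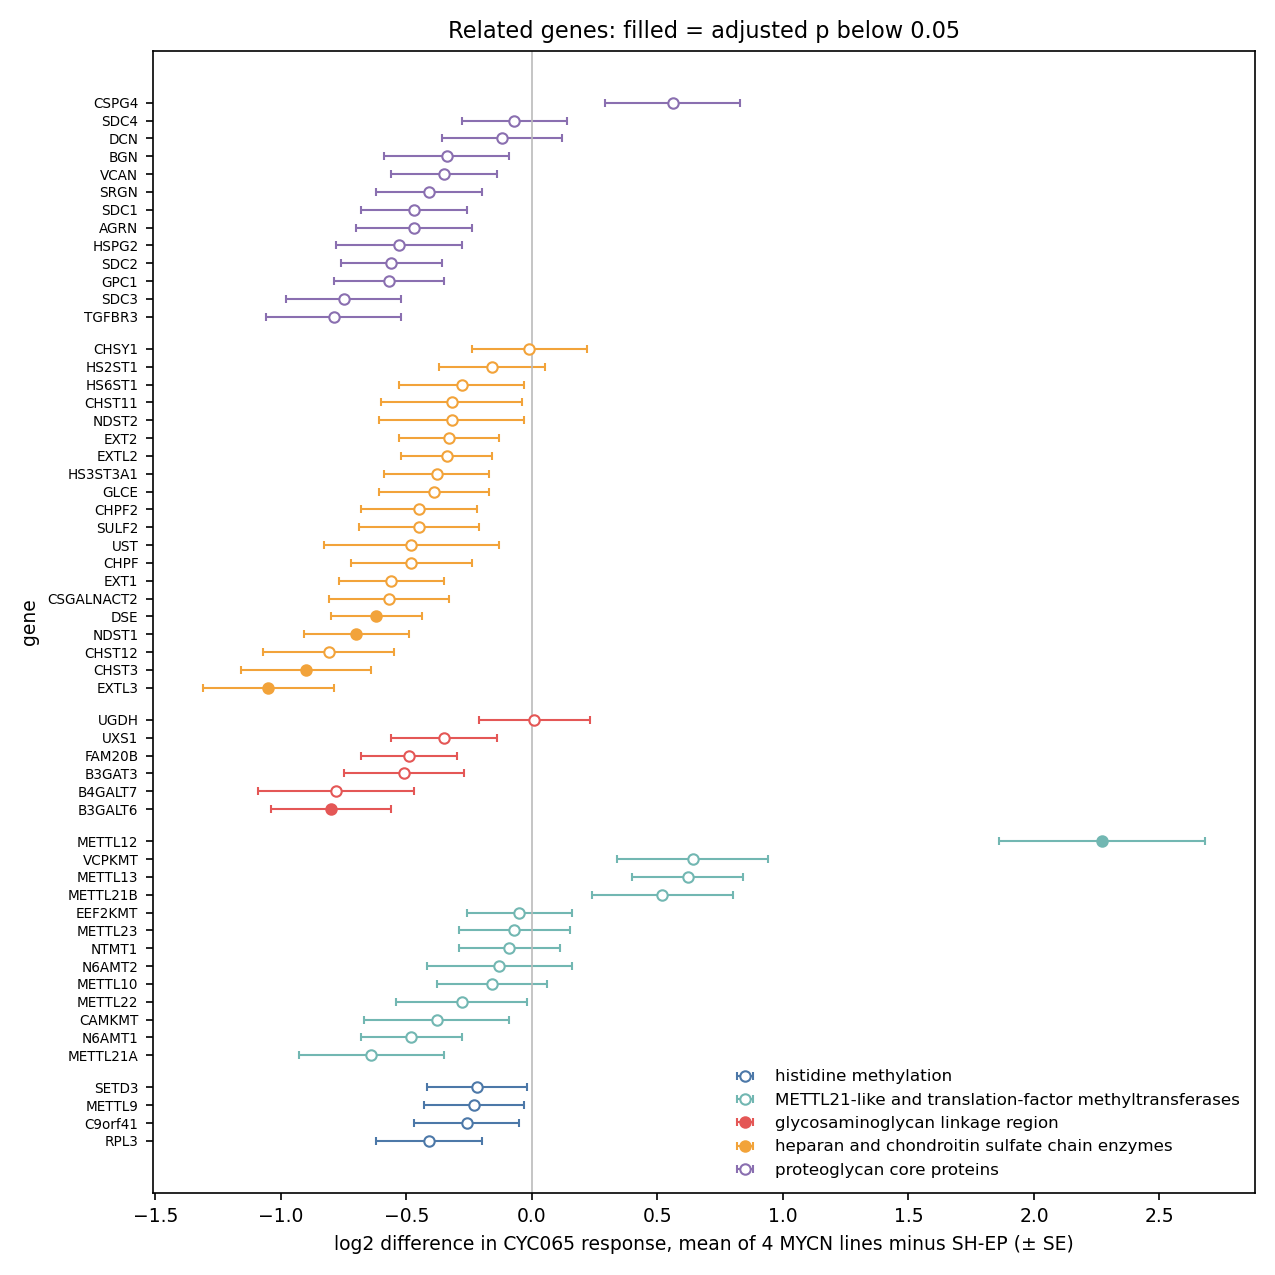
Log2 difference in CYC065 response (± SE), mean of the 4 MYCN lines minus SH-EP after spike-in scaling, for the tested genes of the 5 lists, in colors by list, filled where the adjusted p was below 0.05. METTL12 (2.27) stands alone to the right, and the proteoglycan genes lie mostly below 0, down to EXTL3 (-1.05), as most tested genes do (median -0.2).

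Over the 10 group means on the log2 scale as deposited, the 5 genes most like METTL18 by Pearson r were NAIF1 (0.996), ASTE1 (0.991), SMG8 (0.99), ZNF23 (0.989), and CSTF2T (0.988). NAIF1 kept 9.25% of its DMSO FPKM in SH-EP and 41.7% to 59.9% in the MYCN lines. ASTE1 kept 3.89% and 28.6% to 45.2%. SMG8, which acts in nonsense-mediated decay, kept 16.2% and 50.1% to 74.8%. Like METTL18, these genes had similar FPKM in all lines in DMSO as deposited, with ratios to SH-EP of 0.861 to 1.13, and lost most of their RNA in SH-EP. CSTF2T, a 3′ end processing factor, kept 15.2% and 49.7% to 81.7%, and the zinc finger gene ZNF23 kept 35% and 64.5% to 72.7%.

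The 5 genes most like XYLT2 were TPST1 (0.992), TRAM2 (0.981), SEMA4B (0.98), ZBTB47 (0.98), and ACBD3 (0.974). TPST1, a Golgi enzyme that sulfates tyrosines, kept 96.3% in SH-EP and 37.9% to 49.3% in the MYCN lines, and its DMSO levels there were 0.504 to 0.549 times that of SH-EP. SEMA4B, a semaphorin, kept 94.4% and 36.3% to 44.7%. TRAM2, a protein of the endoplasmic reticulum, kept 81.1% and 50.2% to 55%. None of the 5 fell as far in the MYCN lines as XYLT2. These correlations run over group means that share the treatment and, by the ranking, are the highest of 11575, and they are given as descriptions. METTL18 and XYLT2 were not alike, with an r of -0.0129 over the 10 groups as deposited and 0.54 after spike-in scaling, where the common decrease with CYC065 enters both.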

How the data were processed

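Poly(A) RNA with ERCC spike-ins added by cell number was made into strand-specific libraries and sequenced by the authors, who aligned reads to hg19 with HISAT and quantified genes with Cufflinks (names as in the submitters' processing notes). The deposited values are FPKM per gene and library, with 92 spike-ins. Read counts and total depth are not given in the sources used here, so that counting intervals are not given. Column names showed each library's group but did not match the labels' replicate numbers, so libraries are numbered only by column. No 2 libraries held identical values, and within-group correlations over genes were 0.925 to 0.959.

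From these files, log2(FPKM + 0.1) was fitted in limma 3.58.1 (R 4.3.3; trended variance, 10 groups in 1 fit) over the 11575 genes whose mean reached 1 FPKM. Fold changes on this scale understate changes of low genes. Calls are Benjamini-Hochberg adjusted p under 0.05 over all tested genes. Responses to CYC065 were scaled to the median log2 level of 55 spike-ins of at least 1 FPKM, and levels were compared as deposited, each with the other scale as an alternative. In simulated data for the mean difference in response over 11575 genes, 148 of 200 changed genes were recovered and 6 unchanged genes were called. The simulated noise was drawn separately for each gene. Error shared by all genes of a library, as in its spike-in scaling, did not enter, so that these figures do not cover it. Positions are from the GENCODE annotation on GRCh37, and promoter sequences from RefSeq on GRCh38.p14; promoter entries were matched for both genes.

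METTL18, XYLT2, and the 5 gene lists were chosen with earlier results of these data known. Genes named are both of these, MYCN as a check of the labels, annotated genes within 10 kb, XYLT1, RPL3, the 3 tested genes of each list with the largest difference in response, the 5 highest correlations per gene, and the neighbors in rank. METTL13, SETD3, NDST1, DSE, and EME1 were named after their values were seen.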

Additional observations from a re-analysis of the deposited data

Results flagged for a closer look

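XYLT2 moved in opposite directions in SH-EP and in the MYCN lines on FPKM as deposited. The rise in SH-EP was small, at 0.12 (SE 0.13) on the log2 scale, beside a median of 0.15 over all tested genes. All 3 CYC065 libraries of SH-EP were above its 3 DMSO libraries, and all CYC065 libraries of each MYCN line were below the DMSO libraries of that line. The mean difference in response as deposited was -1.91 on the log2 scale. XYLT2 was picked for this difference, and it was not tested. After spike-in scaling XYLT2 fell in SH-EP as well.

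In 6 genes of the lists the response to CYC065 differed between the MYCN lines and SH-EP by the interaction term in limma with spike-in scaling. The mean difference was 2.27 for METTL12, -0.8 for B3GALT6, -1.05 for EXTL3, -0.7 for NDST1, -0.9 for CHST3, and -0.62 for DSE. Each of the 6 had the same sign as deposited. METTL12 passed without any 1 of the 30 libraries (adjusted p of at most 0.00815, limma, without SH-EP CYC065 library 3). The other calls were lost without some single libraries, 16 of 30 for B3GALT6 (adjusted p up to 0.155, limma), 20 for NDST1 (up to 0.146), and 10 for DSE (up to 0.136), each highest without SH-EP CYC065 library 2, and 3 for EXTL3 (up to 0.0631) and 8 for CHST3 (up to 0.145), both highest without SH-EP CYC065 library 1. As deposited, all 6 passed. Groups of 3 libraries are too small for a test of outlying libraries.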

How the results depend on the processing

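No paired analysis was possible because the columns carry no replicate number that matches the labels. The decrease of both genes with CYC065 kept direction and stayed past the threshold, and the level differences of both between MYCN lines and SH-EP kept direction, under every alternative tried (pseudocounts of 1 and 0.01, no filter, a mean of at least 5 FPKM, the other scaling, centring on the library median, each library left out and, for the decrease, only the 4 MYCN lines). The mean difference in response shrank with a pseudocount of 1, to 2.37 for METTL18 and -1.35 for XYLT2, as a larger pseudocount compresses low values. Leaving out 1 library moved that of METTL18 between 2.89 (without SH-EP CYC065 library 3) and 3.79 (without SH-EP CYC065 library 1) and that of XYLT2 between -2.07 and -1.88. The number of all genes called in this difference, 706 as reported, was 1139 with a pseudocount of 1, 1113 without the filter, 400 at a mean of at least 5 FPKM, 3854 as deposited, and 3512 with centred libraries. It ran from 429 to 1350 with 1 library left out, by over 1.5 times without SH-EP DMSO library 1 (434), 2 (446), or 3 (429) and without T58A DMSO library 1 (1350). The cause was not tested. Of the 12 comparisons between MYCN lines, 2 as reported, 1 passed with a pseudocount of 0.01 or without the filter, 8 with spike-in scaling, and 0 (without T58A DMSO library 2) to 4 (without SH-EP CYC065 library 1) with 1 library left out. That of METTL18 between T58A and WT reversed to 0.05 with spike-in scaling. Among the 5 genes most like METTL18, 1 was shared with the ranking on spike-in scaled means and 3 with that over the 30 libraries. Depth limits METTL18 most in CYC065-treated SH-EP.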
